A study of Rattus norvegicus with 9 samples.

Results

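Globins are the protein chains of haemoglobin, the oxygen carrier of red blood cells. The globin transcripts described here are the 3 rows of the deposited FPKM table named Hba-a1, Hba-a3 and Hbb, out of 11235 named rows in that table and 30454 gene IDs in the count table. They were chosen with their levels in these libraries already known, so their levels are given as a description, without a test, and support nothing further. All 3 passed the filter on low counts that left 17335 genes for testing.

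Rat kidney RNA was sequenced as poly(A) libraries from 9 kidney samples of wild-type Sprague-Dawley rats aged 6 to 8 weeks. The I/R + rapamycin group (3 libraries) had ischaemia of the kidney for 45 min, then reperfusion, and received rapamycin, a drug that blocks mTOR complex 1. The I/R group (3 libraries) had ischaemia for 45 min, then reperfusion, without the drug, and the sham group (3 libraries) had surgery alone. The labels do not settle sex, dose, route or time: the series design has male rats dosed in the peritoneum at 1 mg/kg each day, while the sample protocols have both sexes, oral dosing at 1 or 2 mg/kg each day, and reperfusion for 3 or 7 days. They name both kidney and renal tubular cells as the source and do not say that each library came from a separate animal, so any p-value measures the spread between these samples. Total counts ranged from 44582251 to 60538627 per library. All 10 kidney tubule and podocyte genes listed as a check of the tissue were present, at 55.1 to 3800 CPM, a count scaled to library size.

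A haemoglobin molecule of the adult pairs alpha chains with beta chains, each holding a haem group. Globin genes are transcribed in the maturing red cells of the marrow, and young red cells released into blood still carry globin mRNA. Kidney tissue collected with blood in its vessels can therefore hold globin transcripts, and globin mRNA has also been described in mesangial cells of the rat kidney. Congestion of the vessels of the outer medulla with red cells is a known feature of ischaemic kidney injury. Hba-a1 and Hba-a3 encode alpha chains of the adult type, and Hbb encodes a beta chain. In bulk tissue, fewer red cells, less globin RNA per red cell and less globin RNA from cells of the kidney cannot be told apart.

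The sequences upstream of the transcription starts are shown because the 2 alpha genes and the beta gene sit in separate clusters and yet their levels moved together across the libraries. Each run holds the 200 bases before the start in RefSeq's GRCr8 assembly, 5′ to 3′ on the minus strand, with capitals marking the 4 motifs spelled out after them, on either strand. Hba-a2, an alpha gene with no row of its own name in the FPKM table, is added because of its likeness to Hba-a1.
Hba-a1 (chr10:15842581-15842780, minus strand): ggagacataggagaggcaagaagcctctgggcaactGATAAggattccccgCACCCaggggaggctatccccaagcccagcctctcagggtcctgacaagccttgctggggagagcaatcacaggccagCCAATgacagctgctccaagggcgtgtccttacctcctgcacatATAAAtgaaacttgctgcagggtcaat
Hba-a2 (chr10:15829139-15829338, minus strand): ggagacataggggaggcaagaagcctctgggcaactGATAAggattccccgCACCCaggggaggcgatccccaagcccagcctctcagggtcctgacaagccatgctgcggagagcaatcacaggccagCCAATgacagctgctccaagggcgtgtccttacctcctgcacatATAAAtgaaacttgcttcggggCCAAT
Hba-a3 (chr10:15816944-15817143, minus strand): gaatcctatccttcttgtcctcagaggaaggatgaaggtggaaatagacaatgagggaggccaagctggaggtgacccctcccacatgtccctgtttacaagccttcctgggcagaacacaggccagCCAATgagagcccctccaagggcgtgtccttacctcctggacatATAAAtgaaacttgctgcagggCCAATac
Hbb (chr1:167663722-167663921, minus strand): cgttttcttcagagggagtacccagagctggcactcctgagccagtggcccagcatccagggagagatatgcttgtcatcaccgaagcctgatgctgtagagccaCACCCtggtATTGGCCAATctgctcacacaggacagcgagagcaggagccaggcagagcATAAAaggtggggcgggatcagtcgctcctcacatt

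Counted back from the base before the start, which is position -1, the motif CCAAT began at -71 in Hba-a1, at -73 in Hba-a3 and at -81 in Hbb, with a further match at -7 in Hba-a3. ATAAA, the core of a TATA-like element, began at -27 in Hba-a1, at -29 in Hba-a3 and at -36 in Hbb. CACCC, the letters of a box known from globin promoters, began at -149 in Hba-a1 and at -95 in Hbb, and GATAA, the letters read by GATA factors, began at -164 in Hba-a1 alone among the 3 members. In Hbb a match to CCAAT on the other strand ran from -86 to -82 and lay directly before the match at -81. Over the same 200 bases of 33469 rat promoters, the CACCC motif was found in 42.9%, the ATAAA motif in 32.7%, the CCAAT motif in 29.2% and the GATAA motif in 19.0%, so these matches are a description and not evidence of binding. Hba-a1 and Hba-a2 were identical at 96.5% of aligned positions, against 67.1% for Hba-a1 and Hba-a3.

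A row of the table may gather reads of more than 1 globin gene. The Hba-a1 row spans 30578 bases of chromosome 10 with 3 transcripts, and the whole Hba-a3 row, of 848 bases and 1 transcript, lies inside it on the same strand. The Hbb row spans 131638 bases of chromosome 1 with 5 transcripts. In RefSeq, the neighbours of Hba-a1 in the alpha cluster include Hba-a3, Hba-a2 and Hbq1b, and the neighbours of Hbb in the beta cluster include Hbb-bs, Hbb-b1, Hbbl1 and Hbb-b2. Reads of such related copies could have been split or pooled by the authors' counting, so which copy gave the reads is uncertain. The transcript length implied by counts, FPKM and total counts was 3174 to 3255 bases for Hba-a1 and 3956 to 4058 bases for Hbb, against 608.8 to 640.8 bases for Hba-a3. The length assigned to the 2 abundant rows is therefore several times that of the row for a single alpha gene, which lowers their FPKM relative to Hba-a3.

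Hba-a1, the major alpha row, was the most abundant of the 3. It was at 24.2, 15.3 and 94.0 FPKM in I/R + rapamycin libraries 1 to 3, at 240.9, 574.9 and 602.1 FPKM in I/R libraries 1 to 3, and at 57.6, 44.1 and 472.3 FPKM in sham libraries 1 to 3. Every I/R library stood above every I/R + rapamycin library. The sham group was split, with sham 3 among the I/R values and sham 1 and sham 2 between I/R + rapamycin 1 and I/R + rapamycin 3. In counts, Hba-a1 had 36 genes above it in I/R 2 and 3608 genes above it in I/R + rapamycin 2.

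Hbb, the beta row, showed the same order of libraries. Its values were 10.9, 7.85 and 55.1 FPKM in the I/R + rapamycin libraries, 131.7, 348.0 and 368.6 FPKM in the I/R libraries and 32.9, 23.7 and 256.1 FPKM in the sham libraries. As with the alpha row, sham 3 lay above I/R 1 and below I/R 2 and I/R 3, and I/R + rapamycin 3 lay above sham 1 and sham 2.

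Hba-a3, the minor alpha gene, was far lower, at 1.17, 0.657 and 3.73 FPKM in the I/R + rapamycin libraries, 9.26, 23.3 and 26.1 FPKM in the I/R libraries and 4.19, 2.83 and 26.5 FPKM in the sham libraries. These rest on 33, 23 and 120 counts in I/R + rapamycin, 302, 749 and 887 counts in I/R and 133, 92 and 978 counts in sham. It differed from the other 2 rows in its order: sham 3 was the highest of all 9 libraries, and I/R + rapamycin 3 lay between sham 2 and sham 1. Its value in I/R + rapamycin 2 was the only globin value under 1 FPKM.

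**Figure D1:**
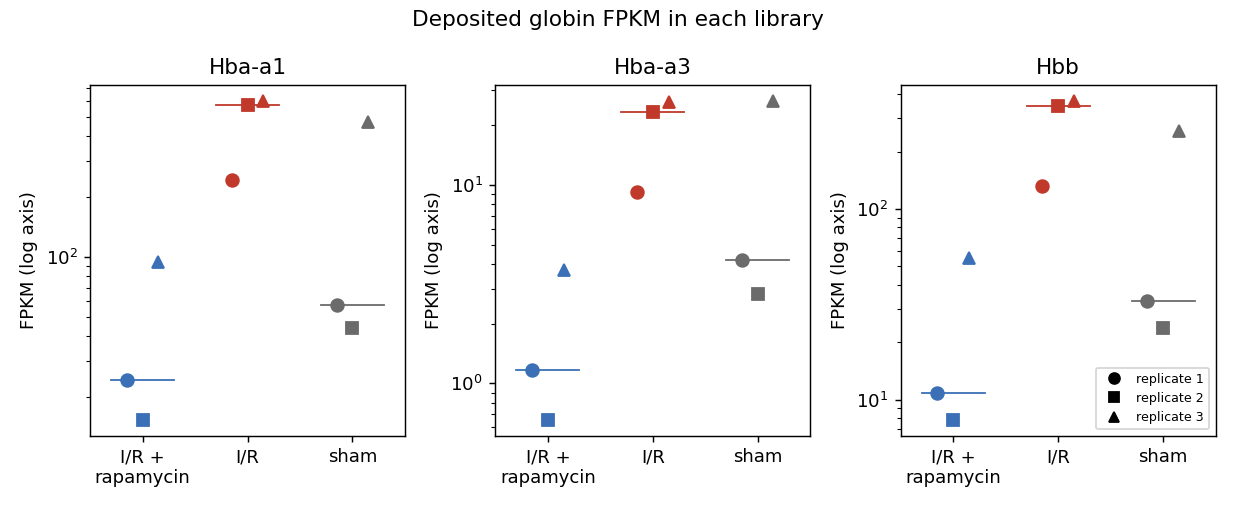
Deposited FPKM of Hba-a1, Hba-a3 and Hbb (vertical axes, logarithmic) in each library of the I/R + rapamycin, I/R and sham groups (horizontal axes). Symbols stand for replicate numbers and lines for group medians. In all 3 panels the I/R libraries lie above the I/R + rapamycin libraries, and sham 3 lies apart from sham 1 and sham 2.

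Single libraries set the means of the I/R + rapamycin and sham groups. Hba-a1 averaged 44.5 ± 43.1 FPKM in I/R + rapamycin, 472.6 ± 201.1 FPKM in I/R and 191.3 ± 243.4 FPKM in sham (SD, n = 3 each). The Hbb means were 24.6 ± 26.5, 282.8 ± 131.2 and 104.3 ± 131.6 FPKM in I/R + rapamycin, I/R and sham, and those of Hba-a3 were 1.85 ± 1.65, 19.5 ± 9.02 and 11.2 ± 13.3 FPKM. The SD was as large as the mean or larger for all 3 rows in sham. Within sham the highest library exceeded the lowest 10.7-fold for Hba-a1, 10.8-fold for Hbb and 9.34-fold for Hba-a3. Within I/R these ratios were 2.5, 2.8 and 2.82, and within I/R + rapamycin they were 6.13, 7.03 and 5.68.

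Together the 3 rows took a small part of each library. Their share of all counts was 0.0123%, 0.00816% and 0.0528% in I/R + rapamycin 1 to 3, 0.129%, 0.326% and 0.339% in I/R 1 to 3, and 0.0319%, 0.0242% and 0.253% in sham 1 to 3. At this depth counting error was small: the Wilson 95% interval of the lowest share ran from 0.00792% to 0.0084% and that of the highest from 0.337% to 0.340%. These intervals cover counting error only, since no molecular identifiers are stated. Between the lowest and the highest library the share differed 41.5-fold.

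Injured kidneys with rapamycin were set against injured kidneys without it, and the labels do not say whether reperfusion lasted equally long in both. Globin levels were lower with the drug in every pair of libraries. The log2 fold changes of the counts were -3.37 (SE 1.21) for Hba-a1, -3.34 (SE 1.08) for Hba-a3 and -3.49 (SE 1.26) for Hbb, or 10.4-, 10.1- and 11.2-fold lower. All 3 rows had groups that did not overlap, where 12.8% of the 17335 tested genes were lower without overlap and 24.6% did not overlap in either direction. Since the rows were chosen from these values, nothing is read from that count. Without I/R + rapamycin 3 the median of the 3 values was -4.50, and over all single libraries left out it ranged from -4.50 to -2.97. For the whole transcriptome, edgeR's quasi-likelihood test with Benjamini-Hochberg adjustment called 22 genes, or 0.127%, and 16.3% had an unadjusted p under 0.05.

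Treated kidneys were also set against sham kidneys. I/R + rapamycin 1 and I/R + rapamycin 2 were below every sham library in all 3 rows, while I/R + rapamycin 3 was above sham 1 and sham 2 in Hba-a1 and Hbb. The log2 fold changes were -2.08 (SE 1.15) for Hba-a1, -2.55 (SE 1.06) for Hba-a3 and -2.06 (SE 1.19) for Hbb, and the groups overlapped for all 3 rows, where 19.3% of tested genes had groups that did not. These values rested on sham 3. Without it the log2 fold changes were -0.16 for Hba-a1, -0.88 for Hba-a3 and -0.17 for Hbb. Without I/R + rapamycin 3 they were -3.21, -3.53 and -3.41 in the same order. Over the whole table edgeR called 27 genes, or 0.156%, and 13.8% had an unadjusted p under 0.05.

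Injured kidneys without the drug were set against sham kidneys. Globin levels were high in all I/R libraries and in 1 of 3 sham libraries. The log2 fold changes were 1.29 (SE 1.12) for Hba-a1, 0.79 (SE 0.97) for Hba-a3 and 1.43 (SE 1.17) for Hbb, with overlapping groups for all 3 rows, where 14.6% of tested genes had groups that did not overlap. Without sham 3 the values were 3.21, 2.47 and 3.32, and without sham 2 the median of the 3 was 0.83. On the log2(FPKM + 1) scale, the differences were 2.02 for Hba-a1, 1.21 for Hba-a3 and 2.10 for Hbb. Over the whole table edgeR called 10 genes, or 0.0577%, and 9.42% had an unadjusted p under 0.05. Each group serves in 2 of the 3 comparisons, so these share libraries.

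**Figure D2:**
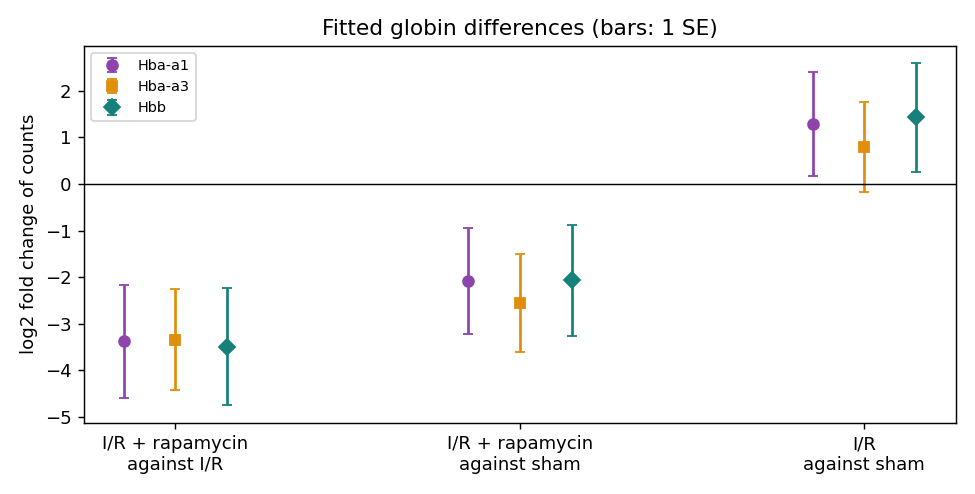
Fitted log2 fold changes of globin counts (vertical axis) in the comparisons of I/R + rapamycin with I/R, I/R + rapamycin with sham, and I/R with sham (horizontal axis), with bars of 1 SE. The points of I/R + rapamycin against I/R lie between -3.49 and -3.34, and those of I/R against sham between 0.79 and 1.43 with bars of about the size of the differences.

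The ratio of alpha to beta was far steadier than the level. Hba-a1 FPKM divided by Hbb FPKM was 2.23, 1.95 and 1.70 in I/R + rapamycin 1 to 3, 1.83, 1.65 and 1.63 in I/R 1 to 3, and 1.75, 1.86 and 1.84 in sham 1 to 3. The groups overlapped, with means of 1.96 ± 0.265 in I/R + rapamycin, 1.70 ± 0.11 in I/R and 1.82 ± 0.0586 in sham (SD, n = 3 each). The highest ratio stood in I/R + rapamycin 1, a library with little globin, and the lowest in I/R 3, with much. The assigned lengths enter this ratio as a nearly constant factor, so its differences between libraries can be read but its size cannot be read as chains of alpha per chain of beta.

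The measured share of Hba-a3 among alpha counts was higher in every sham library than in every library of the injured groups. Hba-a3 made up 0.935%, 0.843% and 0.756% of the summed Hba-a1 and Hba-a3 counts in I/R + rapamycin 1 to 3, 0.732%, 0.770% and 0.824% in I/R 1 to 3, and 1.38%, 1.23% and 1.06% in sham 1 to 3. The means were 0.845% ± 0.0895 in I/R + rapamycin, 0.775% ± 0.0462 in I/R and 1.22% ± 0.160 in sham (SD, n = 3 each). Sham 3, whose globin level lay among those of I/R, had an exact 95% interval of 0.998% to 1.13%. In I/R 3, with a similar level, the interval was 0.771% to 0.880%. In the libraries with few globin reads counting error was wide, at 0.645% to 1.31% in I/R + rapamycin 1 and 0.535% to 1.26% in I/R + rapamycin 2. These intervals overlap those of all sham libraries. The share also depends on how reads of the overlapping Hba-a1 and Hba-a3 rows were assigned, which is not stated. The share comes from the values that chose the rows and is given without a test. As shares of the 2 FPKM values, the ranges were 3.82% to 4.60% in I/R + rapamycin, 3.70% to 4.16% in I/R and 5.31% to 6.78% in sham.

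**Figure D3:**
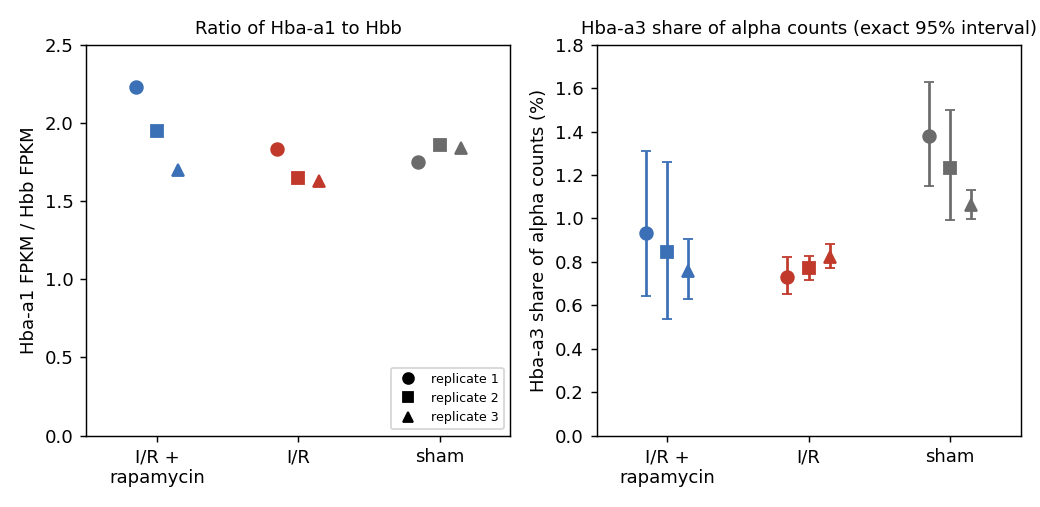
Left, Hba-a1 FPKM divided by Hbb FPKM in each library; right, Hba-a3 as a percent of the summed Hba-a1 and Hba-a3 counts, with exact 95% intervals for counting error (vertical axes), for I/R + rapamycin, I/R and sham (horizontal axes). The ratio overlaps between groups at 1.63 to 2.23, and the share lies at 1.06% or more in sham and at 0.935% or less in the injured groups.

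Across the 9 libraries few genes varied as widely as the globins. The highest CPM exceeded the lowest 36.7-fold for Hba-a1, 36.4-fold for Hba-a3 and 43.4-fold for Hbb, on log2 values with a prior count of 0.5. Of 11307 genes with a mean of at least 5 CPM, 43 had a wider range than Hba-a1, and the median gene had a range of 1.47-fold.

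Other genes of the red cell that carry a name in the table did not vary like the globins. Of 26 listed, 9 could be measured by name, since names come only with the FPKM table, whose rows reach 1 FPKM in 8 or 9 of the 9 libraries. The erythroid marker genes Alas2, Hemgn, Ahsp and Klf1 are among those that carry no name here. IDs without a name that passed the filter were tested too, but which of them, if any, are these genes is not given. Whether these genes followed the globins is therefore unknown, and the globin level is not called blood content. IDs without a name that followed the globins are described further on. The summed level of the 9 ranged from 535.3 to 578.5 CPM in I/R + rapamycin, 589.2 to 642.0 CPM in I/R and 581.7 to 629.5 CPM in sham, while the summed globins ranged from 84.8 to 523.9, 1242 to 3331 and 244.5 to 2552 CPM in these groups. Slc4a1, which encodes the anion exchanger band 3 of red cells and also of acid-secreting cells of the collecting duct, was chosen after its values were seen. It was at 219, 167 and 196 CPM in I/R + rapamycin, 179, 216 and 232 CPM in I/R and 234, 187 and 210 CPM in sham, a 1.40-fold range over all libraries.

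The widest range in this list, 2.25-fold, was that of Sptb, the gene of the beta spectrin of the red cell skeleton. It was at 17.0, 15.2 and 13.0 CPM in I/R + rapamycin, 29.4, 20.5 and 28.8 CPM in I/R and 25.2, 21.5 and 27.4 CPM in sham. The I/R + rapamycin libraries were below all others. In edgeR's quasi-likelihood test its log2 fold change was -0.80 (SE 0.16, adjusted p = 0.0927) against I/R and -0.71 (SE 0.16, adjusted p = 0.12) against sham, and neither passed. DESeq2 called both. Over all alternatives the adjusted p ranged from 0.0012 to 0.983 against I/R and from 0.00545 to 0.348 against sham. Epb41, of protein 4.1, was at -0.35 (SE 0.14, adjusted p = 0.246) with the drug against I/R, while Fam210b was at 0.27 (SE 0.18, adjusted p = 0.689) in I/R against sham. Of the 9, edgeR called 0 in each comparison. Before adjustment 2, 2 and 0 were below 0.05 in I/R + rapamycin against I/R, I/R + rapamycin against sham and I/R against sham. Over all genes 16.3%, 13.8% and 9.42% were, in the same order, and edgeR called 0.127%, 0.156% and 0.0577%. DESeq2 called 1, 2 and 0 of the 9, and 693, 559 and 242 of all 17335 genes. The list's median log2 fold changes in these comparisons were -0.10, -0.12 and 0.04, against 0.01, 0.00 and 0.00 over all genes tested.

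Cygb, cytoglobin, a globin of fibroblast-like cells outside the red cell line, was the only 1 of 14 other globin family genes listed that carries a name here. It was at 66.4, 84.8 and 62.4 CPM in I/R + rapamycin, 64.6, 73.3 and 62.4 CPM in I/R and 63.2, 59.8 and 118 CPM in sham. Its log2 fold changes were 0.09 (SE 0.25), -0.18 (SE 0.25) and -0.27 (SE 0.25) in I/R + rapamycin against I/R, I/R + rapamycin against sham and I/R against sham, with adjusted p of 0.895, 0.804 and 0.789 by edgeR. Its sign turned without sham 3 in the comparisons with sham and in the slope described further on, without I/R + rapamycin 2 against I/R (-0.053), and with the globin level as a covariate in I/R + rapamycin against sham (0.14).

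Genes that take up, carry or break down haemoglobin, haem and iron were tested in 19 rows for 18 of 21 listed. At the 0.0577% to 0.156% called over all genes, 0 called in each comparison by edgeR is no result about the list. It had 5, 4 and 3 at an unadjusted p under 0.05 in I/R + rapamycin against I/R, I/R + rapamycin against sham and I/R against sham, where 16.3%, 13.8% and 9.42% of all genes did, while DESeq2 called 0. The list's medians were 0.06, 0.05 and 0.00. Hmox1, which encodes the haem-degrading enzyme haem oxygenase 1, was at 7.21, 8.16 and 9.34 CPM in I/R + rapamycin, 11.5, 10.0 and 8.93 CPM in I/R and 4.22, 5.28 and 19.2 CPM in sham. Its highest value was in sham 3, as for Hba-a3. Against I/R, the haem transport gene Flvcr2 was at -0.51 (SE 0.16, adjusted p = 0.183) and Lrp2, of the endocytic receptor megalin that takes up filtered haemoglobin, at -0.36 (SE 0.14, adjusted p = 0.245). Against sham, the iron exporter gene Slc40a1 was at -0.42 (SE 0.12, adjusted p = 0.189) and the haem exporter gene Flvcr1 at 0.55 (SE 0.16, adjusted p = 0.197) in I/R + rapamycin. In I/R against sham, Tfrc, the transferrin receptor gene, was at -0.27 (SE 0.10, adjusted p = 0.437) and Flvcr1 at 0.38 (SE 0.16, adjusted p = 0.501). Of 12 tested haem synthesis genes, edgeR and DESeq2 called 0 in each comparison, with 3, 1 and 1 at an unadjusted p under 0.05 in the same order and medians of 0.13, -0.02 and -0.14. Among them Uros was at 0.40 (SE 0.14, adjusted p = 0.21) and Tmem14c at 0.29 (SE 0.11, adjusted p = 0.261) in I/R + rapamycin against I/R, Slc25a38 at 0.41 (SE 0.16, adjusted p = 0.296) in I/R + rapamycin against sham, and Ppox at -0.26 (SE 0.11, adjusted p = 0.501) in I/R against sham.

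Markers of vessels and of other blood cells were set beside the globins by their summed levels. The summed level of 18 endothelial genes was 996.8 to 1091 CPM in I/R + rapamycin, 1065 to 1093 CPM in I/R and 1061 to 1086 CPM in sham. Of these, edgeR called 0 in each comparison, at the 0.0577% to 0.156% called over all genes. In I/R + rapamycin against I/R, I/R + rapamycin against sham and I/R against sham, 2, 7 and 4 were below 0.05 before adjustment. Over all genes 16.3%, 13.8% and 9.42% were. The medians of the 18 were -0.02, -0.03 and 0.02. DESeq2 called 2 in I/R + rapamycin against sham, where it called 559 of all 17335 genes. There Flt1, of a VEGF receptor, was at -0.54 (SE 0.11, adjusted p = 0.0938 by edgeR) and Esam at 0.44 (SE 0.12, adjusted p = 0.172). Flt1 passed edgeR's threshold without I/R + rapamycin 3 (adjusted p = 0.0453). In I/R against sham, Tie1 was at 0.48 (SE 0.14, adjusted p = 0.303). The 10 measured leukocyte genes summed to 216.2 to 474.0 CPM in I/R + rapamycin, 243.6 to 355.8 CPM in I/R and 170.8 to 269.8 CPM in sham. Of the 10, edgeR and DESeq2 called 0 in each comparison, with 1, 1 and 0 at an unadjusted p under 0.05 and medians of -0.09, 0.01 and 0.09. The shares over all genes are those given for the endothelial genes. Fcer1g made up much of these sums, at 268, 364 and 77.9 CPM in I/R + rapamycin, 195, 227 and 99.9 CPM in I/R and 61, 74.9 and 102 CPM in sham, and at 1.58 on the log2 scale (SE 0.58, adjusted p = 0.307 by edgeR) in I/R + rapamycin against sham. Platelet and neutrophil genes could hardly be judged, since 1 of 13 and 1 of 14 listed carry a name. These were Itga2b, at 0.01 (SE 0.15), 0.15 (SE 0.15) and 0.14 (SE 0.15) in the 3 comparisons, and Mmp9, at -0.44 (SE 0.56), 1.29 (SE 0.57) and 1.73 (SE 0.57), none called by edgeR or DESeq2. Without I/R + rapamycin 3, Mmp9 was at 0.25 in I/R + rapamycin against sham, so the 1.29 rests on that library. It then passed edgeR's threshold in the other 2 comparisons, at -1.49 (adjusted p = 0.027) with the drug against I/R, and 1.73 (adjusted p = 0.0109) in I/R against sham.

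Stress genes stood high in part of the same libraries. The 12 measured immediate early and heat shock genes summed to 736.3 to 799.1 CPM in I/R + rapamycin, 728.1 to 2504 CPM in I/R and 1034 to 4194 CPM in sham. Sham 3, I/R 2 and I/R 3 were the 3 highest in these sums and in the summed globins, while I/R 1, next in globins, was the lowest of all in stress genes. Of the 12, edgeR called 0 in each comparison, where it called 0.127%, 0.156% and 0.0577% of all genes. Before adjustment 4, 6 and 0 were below 0.05, where 16.3%, 13.8% and 9.42% of all genes were. DESeq2 called 3, 5 and 0 of the 12, and 693, 559 and 242 of all 17335 genes. The medians of the 12 were -1.39, -1.56 and -0.22. Jun, of an AP-1 subunit, was at -1.92 (SE 0.57, adjusted p = 0.199) against I/R and -2.19 (SE 0.58, adjusted p = 0.197) against sham in I/R + rapamycin by edgeR. Whether stress genes had a part in the globin levels was not tested. Of the 10 kidney tubule and podocyte genes, edgeR called 0 in each comparison, with 2, 3 and 2 below 0.05 before adjustment. DESeq2 called 0, 2 and 1 of them. The shares over all genes are those given for the stress genes.

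**Figure D4:**
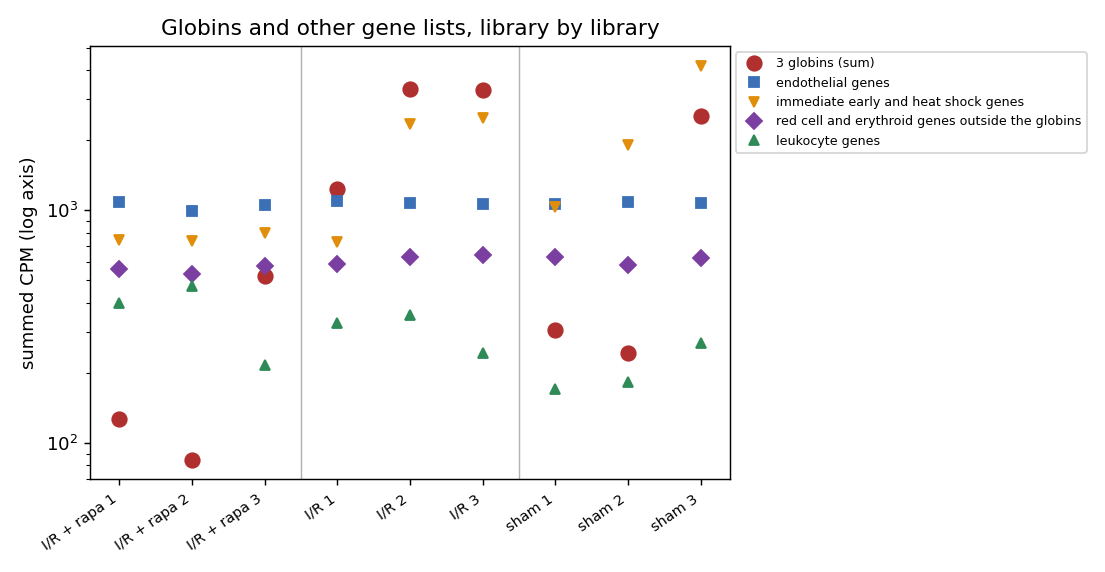
Summed CPM (vertical axis, logarithmic) of the 3 globins and of the endothelial, stress, red cell and leukocyte lists in each of the 9 libraries (horizontal axis, I/R + rapamycin left, I/R in the middle, sham right; rapa stands for rapamycin). The globins run from 84.8 to 3331 CPM while the endothelial and red cell sums stay between 535.3 and 1093 CPM, and the 3 libraries with the most globin are also the 3 highest in stress genes.

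Which other genes went with the globin level was asked in 2 ways. Over the 9 libraries, the log2 CPM of 10378 named genes with a mean of at least 5 CPM was set beside that of the summed globins. The points share libraries, depth and group structure, so the correlations are a description. The most alike were Fli1, a transcription factor gene of blood and endothelial cells (Pearson 0.965, Spearman 0.933), Il6r, of the interleukin 6 receptor (0.95 for both), the kinase gene Pak2 (0.943 and 0.933), Synrg (0.939 and 0.933) and Cnksr3 (0.936 and 0.883). The sizes were small: Fli1 was at 7.94, 8.12 and 9.56 CPM in I/R + rapamycin, 11.4, 11.5 and 11.5 CPM in I/R and 8.65, 8.59 and 12.3 CPM in sham. Most unlike were Gtf2h5, of a subunit of the repair and transcription factor TFIIH (-0.966 and -0.917), Arhgef33 (-0.955 and -0.917), Iba57, of iron-sulphur cluster assembly (-0.953 and -0.883), RGD1305347 (-0.953 and -0.967) and Wdr83os (-0.939 and -0.9). Gtf2h5 was at 40.5, 39.3 and 35.2 CPM in I/R + rapamycin, 32.0, 31.0 and 30.4 CPM in I/R and 34.4, 36.5 and 30.4 CPM in sham.

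The second way fitted the globin level as a number within groups, so that differences between groups did not enter. With edgeR's quasi-likelihood test, 2 of 17332 genes passed an adjusted p of 0.05, 1 with a positive and 1 with a negative slope, a background of 0.0115%, and 807 or 4.66% had an unadjusted p under 0.05. DESeq2 called 72. Tspan1, a tetraspanin gene, had a slope of -0.59 log2 units per log2 unit of globin (SE 0.06, adjusted p = 0.0199). It was at 28.1, 25.9 and 11.9 CPM in I/R + rapamycin, 42.4, 26.3 and 23.2 CPM in I/R and 36.2, 36.2 and 8.25 CPM in sham, lowest in I/R + rapamycin 3 and sham 3, which held the most globin of their groups, and highest of its group in I/R 1, which held the least. The other called gene, ENSRNOG00000000167, has no name here, and its slope was 0.96 (SE 0.10, adjusted p = 0.0199). Jchain, of the joining chain of secreted immunoglobulins (-0.52, SE 0.06, adjusted p = 0.0627), Klf10 (-0.33, SE 0.04, adjusted p = 0.0826), Tbx10 (-0.48, SE 0.06, adjusted p = 0.098) and Klf11 (-0.29, SE 0.04, adjusted p = 0.105) did not pass in edgeR and were called by DESeq2. Each of Jchain, Klf10 and Tbx10 passed in edgeR without I/R + rapamycin 3 (adjusted p = 0.0411, 0.0227 and 0.0339). The number called was 2 without I/R + rapamycin 1 or I/R 2, 6 without I/R + rapamycin 2, 16 without I/R + rapamycin 3 or I/R 1, 1 without sham 3, and 0 without I/R 3, sham 1 or sham 2. Tspan1 lost its call without I/R 3, sham 1, sham 2 or sham 3 (adjusted p = 0.0535, 0.0998, 0.105 and 0.332). ENSRNOG00000000167 likewise was not called without I/R 3, sham 1 or sham 2, where 0 genes were.

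Among the lists, edgeR and DESeq2 called 0 members for this slope. At an unadjusted p under 0.05 there were 5 of 10 leukocyte genes, all with positive slopes, led by Cd68 (0.29, SE 0.07) and Itgb2 (0.22, SE 0.06), both macrophage or leukocyte genes, against 4.66% of all genes. Both were highest in sham 3 and, within I/R + rapamycin, in library 3. Without sham 3 the slope of Cd68 was 0.19. The leukocyte list had a median slope of 0.11 with 9 of 10 above 0, against a median of 0.00 and 50% above 0 over all genes tested. Fcer1g, which made up much of the list's summed level, did not follow the globins in every group. It was lowest of its group in I/R + rapamycin 3 (77.9 CPM) and I/R 3 (99.9 CPM) and highest in sham 3 (102 CPM). Hmox1 had a slope of 0.37 (SE 0.12, adjusted p = 0.917) and Cubn, of the endocytic receptor cubilin, of 0.12 (SE 0.05, adjusted p = 0.999). Both rested on sham 3, without which the slopes were 0.013 for Hmox1 and 0.048 for Cubn. Within I/R, Hmox1 was highest in I/R 1, the library of that group with the least globin. The 12 stress genes had a median slope of 0.33, with 11 of 12 above 0 and 4 at an unadjusted p under 0.05, Dnajb1 at 0.20 (SE 0.06) and Hsph1 at 0.14 (SE 0.04) among them. Without sham 3 the slope of Dnajb1 was -0.003. Red cell genes had a median slope of 0.01, with Slc25a37, the mitochondrial iron importer mitoferrin 1, at 0.15 (SE 0.05, adjusted p = 0.917), and endothelial genes a median of 0.00, with Tie1 at -0.10 (SE 0.04, adjusted p = 0.999) and at 0.006 without sham 3.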

How the data were processed

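One deposited table holds raw counts for 30454 Ensembl IDs, and a second holds FPKM (fragments per kilobase and sequencing depth) as computed by the authors, with names and the same counts, for 11235 genes, per the file headers. Gene start and end positions, which are also listed there, were used as other deposited values for spans only. Per the submitters' processing notes, HISAT2, StringTie, cutadapt and DESeq2 were used with Rnor_6.0. The strand setting, the annotation and how reads were counted are not stated there, so reads of overlapping genes cannot be told apart. All libraries were taken as batch 1, but their titles name no batch, so differences between batches were not tested.

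The main tests were run with edgeR 4.0.16 in R 4.3.3 (TMM factors, default filter, robust quasi-likelihood fit of all 9 libraries). CPM uses TMM-scaled library sizes, and SE is the log2 fold change over the square root of F. Alternatives changed the scaling, the filter, the replicate block, the covariate and the libraries kept, or used DESeq2 1.42.0, or limma 3.58.1 on log2 FPKM. For the slope, the log2 CPM of the summed globins was added to the group terms and the globins were left out of the tested genes. Named genes were the globins, up to 2 members of each list with the smallest p, the genes of smallest p for the slope, and 5 genes at each end of likeness; Slc4a1 and the IDs without a name were chosen after their values were seen. A gene that this rule also names is not reported here. Members and lists were chosen with earlier results of these data known. On simulated data, edgeR recovered 26% of planted 1.5-fold changes, 66% of 2-fold and 96% of 4-fold ones in I/R + rapamycin against I/R. It recovered 65% of planted slopes of 0.3 and 90% of slopes of 0.6. Changes were planted only in genes with higher counts, and counts were drawn from the fitted spread, so recovery in the real libraries can be lower. Small changes can be missed where 0 genes are called, and large ones can be too where libraries of a group differ widely. In I/R + rapamycin against I/R, edgeR's quasi-likelihood test did not call ENSRNOG00000000167 at -3.43 (SE 1.17, adjusted p = 0.241). Libraries of a group differed beyond counting error, with chi-square per degree of freedom of 33.9 to 134, and each counts as its own sample.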

Additional observations from a re-analysis of the deposited data

How the results depend on the processing

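The globin differences kept their sign under every scaling, filter, tool and single library left out that was run. The median of the 3 log2 fold changes ranged, with single libraries left out, from -4.50 to -2.97 in I/R + rapamycin against I/R, from -3.41 to -0.17 in I/R + rapamycin against sham and from 0.83 to 3.21 in I/R against sham, the last values of the comparisons with sham without sham 3.

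Counts of called genes depended on the tool and on single libraries. In I/R + rapamycin against I/R, I/R + rapamycin against sham and I/R against sham, edgeR called 22, 27 and 10, DESeq2 693, 559 and 242, and edgeR with the globin level as a covariate 1, 6 and 5. With single libraries left out the ranges were 0 to 47, 3 to 47 and 0 to 36, and for the slope 0 to 16. In I/R + rapamycin against I/R the count was 0 without I/R + rapamycin 1, I/R + rapamycin 2 or sham 1, 1 without I/R 2, 3 without I/R 3 or sham 2, 44 without sham 3 and 47 without I/R 1. In I/R + rapamycin against sham it was 47 without I/R 1, 40 without sham 3, 14 without I/R 2, 10 without sham 1, 5 without sham 2, and 3 and 5 without the first and the second I/R + rapamycin library. In I/R against sham it was 36 without I/R 1, 16 without sham 3, 4 without I/R 2, 3 without sham 1, 0 without I/R 3 or sham 2, and 5 and 2 without the first and the second I/R + rapamycin library. The slope had 72 calls in DESeq2, 4 with no filter on low counts and 1 with Hbb alone as the globin level, against 2. The cause was not tested.

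Same-numbered libraries deviated from their group means with correlations of -0.194 to 0.127, against -0.128 to 0.246 for different numbers. These correlations gave no sign of pairing by number but cannot decide it. In FPKM, the library numbered 3 held the most of each globin in every group. By CPM, I/R 2 (3331) lay just above I/R 3 (3309) in the summed globins. Whether libraries of the same number shared their handling was not tested. With the replicate number as a block the 4 counts were 1, 7, 1 and 1, Tspan1 was not called for the slope (-0.51, adjusted p = 1 by edgeR, over a range of 3.87e-19 to 1 under its alternatives), and the globin medians were -3.85, -1.82 and 2.12.

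Of 70 named gene and comparison pairs, 13 turned sign under at least 1 alternative, and the cause was not tested. With the globin level as a covariate these were Cubn (0.031), Lcp1 (0.25) and Mmp9 (0.45) in I/R + rapamycin against I/R, Cygb (0.14) in I/R + rapamycin against sham and Lcp1 (-0.001) in I/R against sham. With single libraries left out, Cygb ranged from -0.053 to 0.179, from -0.35 to 0.21 and from -0.44 to 0.12 in the 3 comparisons and from -0.088 to 0.237 for the slope, Itga2b from -0.095 to 0.109 with the drug against I/R and from -0.034 to 0.118 for the slope, and the slopes of Dnajb1, Sox17 and Tie1 from -0.003 to 0.293, -0.054 to 0.287 and -0.141 to 0.006.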

Other observations

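Among all 17332 tested genes outside the globins, 6103 of them without a name here, 2 followed the summed globins with a Pearson correlation over 0.95 and a change of over 0.4 log2 units per log2 unit of globin across the 9 libraries. Both limits were set after the values were seen, the correlations are a description, and neither ID has a name in the tables used. ENSRNOG00000000167 was at 1.25, 0.704 and 2.72 CPM in I/R + rapamycin 1 to 3, 9.96, 20.1 and 20.5 CPM in I/R 1 to 3, and 2.09, 1.00 and 18.3 CPM in sham 1 to 3. Its correlation with the globins was 0.982 (Spearman 0.967), and its level differed 29.1-fold over the libraries. ENSRNOG00000012557 was at 0.277, 0.152 and 0.880 CPM in I/R + rapamycin, 1.67, 4.46 and 4.47 CPM in I/R and 1.06, 0.235 and 5.34 CPM in sham, with a correlation of 0.965 (Spearman 0.9) and a 35.1-fold range. It rests on 8 to 321 counts a library. Across libraries they changed by 0.96 and 0.92 log2 units per log2 unit of globin, and none of the 11229 genes with a name passed both limits. Names come only with rows that reach 1 FPKM in 8 or 9 of the 9 libraries. This can leave weakly expressed genes of wide range without a name, so nothing is read from the lack of named genes. The values that follow are for ENSRNOG00000000167 and ENSRNOG00000012557. Their log2 fold changes in I/R + rapamycin against I/R were -3.43 (SE 1.17) and -3.00 (SE 1.13), with adjusted p of 0.241 and 0.258 by edgeR's quasi-likelihood test.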
